A study of Mus musculus with 9 samples.

Results

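Genes of the glycosylation machinery were followed in crypt epithelium of the mouse intestine after activation of a mutant β-catenin allele. The genes were taken by symbol from the whole table: the sialyltransferases (St3gal, St6gal, St6galnac and St8sia symbols), the enzymes that extend and galactosylate chains (B3gnt, B3galt and B4galt symbols, with the B4galnt symbols), the Galnt, Fut and Gcnt families, and Cmah, Cmas, Nans, Gne and C1galt1. This gave 82 of 24930 gene rows, 2 of them non-coding symbols (Fut4-ps1 and St8sia3os). Of the 82, 48 reached at least 1 FPKM in at least 3 of the 9 libraries and were tested, 31 stayed below 1 FPKM in every library, and 3 reached 1 FPKM in some library without passing the filter. FPKM is the fragment number relative to transcript length and to a scale for each library, so levels of different genes can be set side by side. The median ratio of each library to the gene means was 1.00276 in all 9 libraries, while their totals ran from 624923 to 755802 FPKM. The deposited values were thus scaled to equal median ratios and not to equal totals.

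The 9 poly(A) RNA libraries came from epithelium collected on day 8, 9 or 10 after induction, with 1 library per group and day. What was induced in the 6 mutant libraries was 1 mutant, gain-of-function allele of the β-catenin gene Ctnnb1. The 3 control libraries are labelled only as control, with no genotype. Set A is titled Bcathet but its library names carry CDX2HET and EXON3. Set B is titled Cdx2het_Bcathet but its library names carry EXON3 alone. The labels thus conflict on which set also has the heterozygous Cdx2 allele, and the neutral names are kept. Cdx2 itself stood at 108 to 139 FPKM in the controls, 126 to 144 in set A and 178 to 196 in set B. Every library of set B lay above every library of set A, as for 3.18% of all genes. What this means for the labels was not tested. The labels name no Cre driver, strain, sex or age of the mice and no pooling of animals. Nor do they state that each library is a separate animal, so p-values measure only how these libraries spread.

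The 4 epithelial markers (Epcam, Krt8, Cdh1 and Vil1) summed to 2742 to 3214 FPKM across the 9 libraries, and 5 fibroblast markers summed to 0.018 to 0.117 FPKM in the controls and 0.242 to 6.58 in the mutants, every mutant library above every control; their part in the results was not tested. The first principal component (43.5% of variance) put controls between −22.7 and −21.6 and 5 mutant libraries between 2.57 and 30. The set B library of day 9, called B9 from here on, fell near the controls at −19.1. B9 was not control-like for the crypt base stem markers Axin2 and Lgr5, at 78.1 and 32.7 FPKM. Controls had 34.2 to 41.0 and 9.48 to 11.4, and the other mutants 37.4 to 56.3 and 9.79 to 25.6. Olfm4, Ascl2 and Smoc2 of that list were also highest in B9. The cause was not tested. Xist stood at 0.1 FPKM in B9 and at 27.0 to 39.4 elsewhere, and the sum of 4 Y-linked genes was 41.7 in B9 and never above 0.047 elsewhere. Results are therefore given with and without B9, and the part of that Xist and Y-linked difference in them was not tested. The gene-level value of Ctnnb1 cannot show a loss of exon 3. It ran from 187 to 207 FPKM in the controls and from 211 to 239 in the mutants, with B9 at 235. Every mutant library lay above every control, as for 5.19% of all genes. A level of 1 FPKM rests on 16.8 to 19.1 fragments per kilobase of transcript. In bulk RNA, fewer cells of a type and less RNA per cell cannot be told apart.

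The enzymes measured here build the glycans of secreted mucins and of the epithelial cell surface. GALNT enzymes place the first GalNAc on serine or threonine, C1GALT1 and the GCNT enzymes form the core and its branches, and B3GNT, B3GALT and B4GALT enzymes lengthen the chains with GlcNAc and galactose. Chains are then capped with fucose or with sialic acid. FUT2, the secretor enzyme, makes the terminal fucose of the H antigen on intestinal glycans, which gut bacteria can use, and CMAH converts the activated sialic acid CMP-Neu5Ac into CMP-Neu5Gc.

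Among the tested genes, Cmah fell in the mutant epithelium, and Fut2 and B3galt5 had far higher values in 5 of the 6 mutant libraries. With all 9 libraries, 1 of 48 tested members passed in the comparison of both mutant sets with control, Cmah, which was lower; 1.16% of the 12097 genes tested passed in either direction (limma on log2(FPKM + 1), Benjamini-Hochberg adjusted p under 0.05 over all genes). At an unadjusted p under 0.05 there were 10 members and 2537 genes. The median log2 fold change of the 48 was 0.10, with 32 positive, beside −0.0017 over all genes, a median that the deposited scaling itself puts near 0. After rescaling to equal totals, which replaces that scaling, the 2 medians were 0.14 and 0.035. Rescaling the libraries to equal totals raised the members past the threshold to 2, with B4galnt4 higher and Cmah lower, and moved the split over all genes from 62 higher and 78 lower to 133 higher and 36 lower.

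Without B9, 7 members passed: B3galt5, Fut2, B4galt1, B3gnt7, Fut8 and B4galnt4 rose and Cmah fell. In that fit 8.22% of all genes passed, 4.6% as higher and 3.61% as lower. B9 was set apart in part because it lay near the controls. Leaving it out therefore favours calls for genes at which B9 had control-like values, here and in later results without B9. Over all genes 140 passed with all libraries and 994 without B9, the most of any fit with a library left out (17 to 994). Without B9, the median of the 48 was 0.11, with 35 positive. The 5 other mutant libraries lay above all 3 controls for 9 of the 48 (9.9% of all genes did), and below them for 2 (10.3% of all genes). The 9 were B3galt5, B3gnt5, B3gnt7, B4galnt4, B4galt1, B4galt4, Cmas, Fut2 and Fut8, and the 2 were Cmah and Galnt5. With B9 included, B4galnt4 and Cmas stayed above (5.19% of all genes) and Cmah and Galnt5 below (7.37%).

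**Figure D1:**
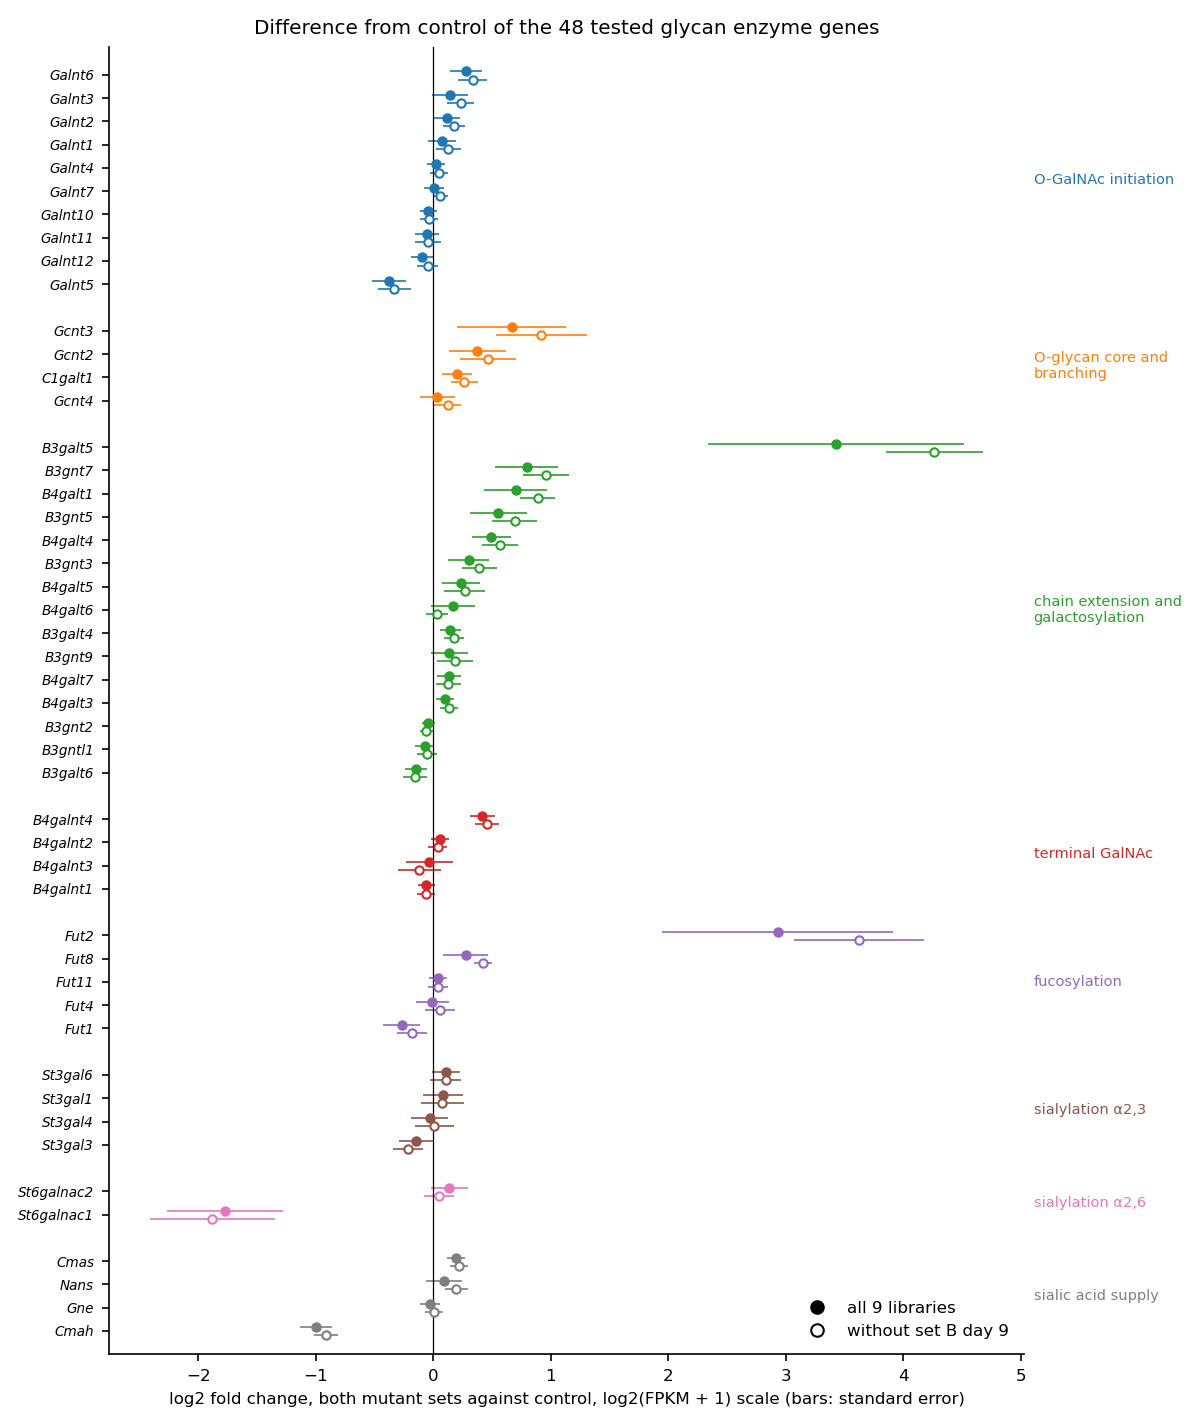
Log2 fold change on the log2(FPKM + 1) scale, mutant against control, for the 48 tested members, ordered by role, with bars of 1 standard error; filled points use all 9 libraries and open points leave out B9. B3galt5 and Fut2 lie farthest to the right and St6galnac1 and Cmah farthest to the left, and the bars of B3galt5 and Fut2 shorten without that library.

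Sialic acid supply was led by Cmah. Its level was 67.9, 74.1 and 64.2 FPKM in the controls on days 8, 9 and 10, 42.8, 38.1 and 34.4 across set A, and 30.5, 23.6 and 37.7 across set B. Every mutant library lay below every control library, and the mean went from 68.7 ± 5.04 FPKM (SD, n = 3) in control to 34.5 ± 6.72 (SD, n = 6), a ratio of 0.502. Cmah fell by 1.00 ± 0.14 (SE) on the log2 scale in both sets together (limma adjusted p = 0.0192). It fell by 1.17 ± 0.16 in set B (adjusted p = 0.0214), and its difference in set A, −0.83 ± 0.16, did not pass (adjusted p = 0.0921). The difference between the sets, set B minus set A, was −0.34 ± 0.16 and did not pass (unadjusted p = 0.0621); without B9 it was −0.17 ± 0.12 (unadjusted p = 0.208). A two-sided exact permutation test of both sets against control gave p = 0.0238, the smallest that 3 against 6 libraries allows here, and 0.0476 after adjustment over the 2 genes tested this way. The members were chosen with earlier results of these data known, so adjustment over 2 genes does not cover how those 2 were picked.

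The Cmah call over both sets was lost when any 1 control library was left out (adjusted p = 0.0733, 0.102 and 0.097 without day 8, 9 and 10) and without the day-8 library of set B (adjusted p = 0.0571), although the log2 fold change stayed between −1.08 and −0.91. The set B call was lost without the same 4 libraries (adjusted p from 0.0734 to 0.0942) and when set B and control were fitted alone (adjusted p = 0.0800). Without B9, Cmah fell in both sets together (limma adjusted p = 0.0076) and in set A alone (limma adjusted p = 0.0239). For both sets together, the 15 alternatives to the fit with all libraries, this one included, gave limma adjusted p from 0.00457 to 0.102. B9 is no part of set A: the difference there stayed at −0.83, and its SE, from the spread shared by all groups, went from 0.16 to 0.11. The summed level of 7 Paneth cell markers was, like Cmah, lower in every mutant library than in every control. The controls summed to between 45087 and 84234 FPKM, B9 to 35566 and the other mutants to between 15408 and 37705. Much of these sums was Defa17 and Defa24, with control means of 19835 and 21729 FPKM. Taken singly, these 2, Lyz1, Ang4 and Itln1 lay lower in every mutant library than in every control (7.37% of all genes did). Mmp7 and Pla2g2a did not. Paneth sums were 15408 to 31488 in set A and 31174 to 37705 in set B, and mean Cmah was 38.4 FPKM in set A and 30.6 in set B. Neither Cmah nor any of the 7 markers passed in set B against set A. Of these 7 genes, Lyz1, Ang4 and Defa24 passed as lower in both sets together (0.645% of all genes did), while Pla2g2a (3.60) and Mmp7 (0.09) had positive log2 differences that did not pass. Pla2g2a was split within the controls, at 132 and 93.7 FPKM on days 8 and 9 and 8269 on day 10, beside 2693 to 10178 in the mutants. The cause of that split was not tested. The part of the Paneth markers in the Cmah result was not tested.

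The Cmah promoter is shown because Cmah was the member that passed with all 9 libraries. RefSeq gives 2 starts for Cmah, and the upstream window (GRCm38.p6, chr13:24327154-24327453, plus strand, 250 bases before to 50 after the start) holds a match, in capitals, to the core letters ATCAAAG bound by TCF/LEF factors, the DNA-binding partners of β-catenin.
Cmah: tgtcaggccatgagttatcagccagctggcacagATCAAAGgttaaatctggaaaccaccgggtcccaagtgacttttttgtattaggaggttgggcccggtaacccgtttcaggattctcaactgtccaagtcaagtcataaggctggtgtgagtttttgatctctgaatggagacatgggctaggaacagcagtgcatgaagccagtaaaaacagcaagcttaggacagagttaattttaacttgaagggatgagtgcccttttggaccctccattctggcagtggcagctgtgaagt
The match spans 216 to 210 bases upstream of that start (counted on both strands, these letters occurred in 1225 of 32851 promoter windows of the table, 3.73%, and in 2 of 48 windows of the 35 tested members found there, at Cmah and Fut8). The letters TTTATGG, the core bound by CDX2, occurred in 2.75% of all windows and in 0 of those 48. A match is a description of letters and not of binding, and FPKM per gene does not tell which start was used.

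The other 3 supply genes differed less. Cmas, which activates sialic acid to its CMP form, had 77.9, 86.1 and 87.4 FPKM in the controls, 87.6, 93.8 and 103 across set A, and 96.8, 90.0 and 104 across set B. All 6 mutant libraries exceeded the controls, by a narrow margin, and the difference of 0.19 ± 0.08 did not pass (adjusted p = 0.208). Nans, which makes the sialic acid phosphate, had a mean of 61.0 ± 3.41 FPKM in controls against 65.9 ± 11.6 in mutants (adjusted p = 0.768); 29.6% of its annotated exon length overlaps Trim14 on the opposite strand, so its reads cannot be fully told apart. Gne, whose enzyme starts the pathway, had 16.8 ± 1.05 and 16.5 ± 1.43 FPKM.

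Fucosylation was led in size by Fut2. Its level was 1.47, 1.49 and 2.92 FPKM in the controls, 21.4, 9.42 and 57.4 across set A, and 37.1, 2.00 and 72.7 across set B. B9 lay within the control range, and the other 5 mutant libraries were at 9.42 FPKM or more. The mean was 1.96 ± 0.834 FPKM in control (SD, n = 3) and 33.3 ± 27.7 in the mutants (n = 6), 17.0 times as high. The log2 difference of 2.93 ± 0.98 did not pass with all libraries (limma adjusted p = 0.154), whereas the two-sided exact permutation p was 0.0476, also after adjustment over 2 genes. As for Cmah, that adjustment does not cover how the 2 genes were picked. Without B9, Fut2 rose by 3.62 ± 0.55 (limma adjusted p = 0.0182), and the mean of the 5 mutant libraries was 39.6 ± 25.8 FPKM, 20.2 times that of control. That fit is itself among the 15 alternatives to the fit with all libraries, which gave limma adjusted p from 0.0182 to 0.385.

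Fut8, which puts the core fucose on N-glycans, had 38.9, 42.9 and 40.6 FPKM in the controls, 43.5, 45.9 and 52.4 across set A, and 63.5, 34.1 and 64.8 across set B. The lowest value of all 9 was again B9. Fut8 differed by 0.27 ± 0.19 with all libraries (limma adjusted p = 0.455) and rose by 0.42 ± 0.07 without that one (limma adjusted p = 0.0214). Over the 15 alternatives to the fit with all libraries, the fit without B9 included, limma adjusted p ran from 0.0214 to 0.649. Fut4 stood at 16.0 ± 2.54 FPKM in controls against 16.0 ± 2.68 in mutants, and the sign of its difference of −0.01 turned under rescaling. Fut1, which can also make H antigen, had 1.10 to 1.61 FPKM in control and 0.549 to 1.39 in the mutants, and Fut11 3.99 to 5.31 over all 9 libraries. Neither Fut1 nor Fut11 passed. Of the 9 Fut symbols, Fut7, Fut9, Fut10 and Fut4-ps1 stayed below 1 FPKM throughout.

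Among the enzymes of chain extension, B3galt5, which adds galactose to GlcNAc and makes type I chains, had the largest difference of all tested members. Its level was 9.20, 3.06 and 2.76 FPKM in the controls, 63.7, 61.9 and 139 across set A, and 122, 2.97 and 134 across set B. B9 was at the control level and the other 5 mutant libraries were all above 60 FPKM. The mean was 5.01 ± 3.63 FPKM in controls against 87.4 ± 53.7 in mutants, 17.4 times as high, and the log2 difference of 3.43 ± 1.09 did not pass (adjusted p = 0.143). Without that library B3galt5 rose by 4.26 ± 0.41 (limma adjusted p = 0.0076), and it rose in set A taken alone in the same fit (limma adjusted p = 0.0239). For both sets together, the 15 alternatives to the fit with all libraries, this one included, gave limma adjusted p from 0.0076 to 0.373. The set A difference was 3.95 in both fits, and its SE, from the shared spread, went from 1.26 to 0.46.

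B4galt1, which adds galactose to GlcNAc in type II chains, had 32.2, 28.6 and 27.9 FPKM in the controls, 42.8, 44.3 and 65.6 across set A, and 56.7, 27.7 and 67.1 across set B. B3gnt7, which adds GlcNAc to galactose and acts on keratan sulfate chains, had 26.7, 21.1 and 18.6 FPKM in the controls, 32.9, 39.7 and 56.5 across set A, and 40.0, 22.4 and 50.8 across set B. Both had their lowest mutant value in B9 and exceeded the controls in the other 5. B4galt1 differed by 0.70 ± 0.27 with all libraries (limma adjusted p = 0.196) and rose by 0.89 ± 0.15 without B9 (limma adjusted p = 0.0188). B3gnt7 differed by 0.79 ± 0.27 with all libraries (limma adjusted p = 0.156) and rose by 0.96 ± 0.20 without B9 (limma adjusted p = 0.0332). The 15 alternatives to the fit with all libraries include the fit without B9. Their limma adjusted p ran from 0.0188 to 0.432 for B4galt1 and from 0.0273 to 0.387 for B3gnt7.

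**Figure D2:**
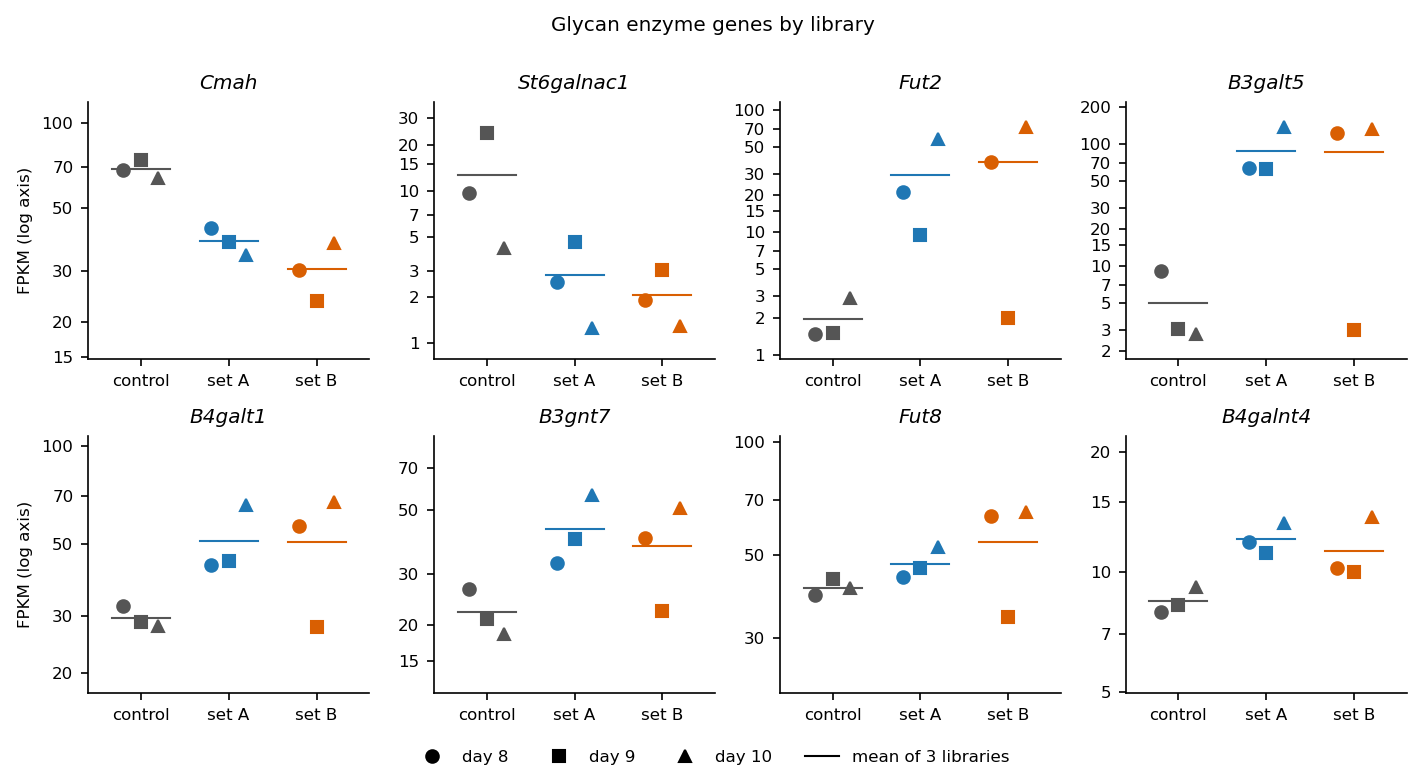
FPKM on a log axis for 8 members in each of the 9 libraries, by group, with the day as the marker shape and the mean of 3 libraries as a line. Cmah is lower in all 6 mutant libraries, whereas for Fut2, B3galt5, B4galt1, B3gnt7 and Fut8 the square of set B lies at or near the control level.

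The windows of B3galt5 and B4galt1 are shown because these genes rose in the same fit without B9. B3galt5 has 3 starts in RefSeq, the first at chr16:96235551-96235850 (plus strand), and B4galt1 has 1, at chr4:40853935-40854234 (minus strand), both in GRCm38.p6 and neither with a match to the 2 sets of letters above.
B3galt5: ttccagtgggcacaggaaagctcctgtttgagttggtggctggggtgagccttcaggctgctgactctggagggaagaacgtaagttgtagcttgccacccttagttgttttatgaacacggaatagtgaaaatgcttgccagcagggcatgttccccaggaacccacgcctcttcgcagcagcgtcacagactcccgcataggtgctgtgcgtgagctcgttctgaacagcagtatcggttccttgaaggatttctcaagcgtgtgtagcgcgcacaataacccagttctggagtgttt
B4galt1: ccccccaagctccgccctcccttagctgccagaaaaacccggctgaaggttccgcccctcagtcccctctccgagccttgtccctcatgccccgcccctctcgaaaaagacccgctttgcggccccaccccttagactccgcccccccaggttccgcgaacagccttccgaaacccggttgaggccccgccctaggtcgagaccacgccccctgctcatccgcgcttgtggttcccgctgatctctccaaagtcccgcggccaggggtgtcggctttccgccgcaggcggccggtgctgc
The window of B4galt1 has 68.3% G or C and 26 CpG, and the first B3galt5 window has 53.0% and 12, beside medians of 52.7% and 7 over all windows. The other B3galt5 windows, not printed, have 47.3% and 6 and 67.3% and 24, so the third is close to that of B4galt1. The Cmah window above has 47.3% and 3.

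B4galt4, another galactosyltransferase, had 6.76 to 10.8 FPKM in control, 11.5 to 14.8 in set A and 10.1 to 15.9 in set B, a difference of 0.49 ± 0.17 (adjusted p = 0.156). B3gnt5, which starts lacto-series glycolipids, had 0.46, 0.47 and 0.429 FPKM in control and 0.295 to 2.20 in the mutants; it passed the filter only through mutant libraries, so its higher mutant values are in part fixed by the filter. The ratio of its means was 2.69, while its log2 difference of 0.55 ± 0.24 on the log2(FPKM + 1) scale, which shrinks low values, did not pass (adjusted p = 0.241). B3gnt3, an enzyme that extends core structures on mucins, was among the most abundant members at 124 ± 17.5 FPKM in controls against 155 ± 30.6 in mutants (adjusted p = 0.363).

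Of the 15 tested genes of this role, B3gnt9 (0.534 to 1.10 FPKM in controls against 0.667 to 1.36 in mutants), B3galt4, B3galt6, B3gnt2, B3gntl1, B4galt3, B4galt5, B4galt6 and B4galt7, passed neither with nor without B9. Apart from B3gnt9, their control means ran from 3.85 FPKM for B3galt6 to 33.8 for B4galt3, which shares 14.5% of its exon length with Ppox on the opposite strand. B3galt1, B3galt2, B3gnt4 and B4galt2 stayed below 1 FPKM.

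Near the filter, B3gnt5 and B3gnt9 were just inside, each with a third-highest value of 1.10 FPKM, and B3gnt6 and B3gnt8 just outside, at 0.864 and 0.765. B3gnt6, which makes the core with GlcNAc on the first GalNAc, had 0.471 to 1.06 FPKM over the 9 libraries.

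Terminal GalNAc enzymes included 2 of the most abundant members, with nearly level values. B4galnt1, which makes gangliosides, had 301 ± 25.0 FPKM in controls against 289 ± 15.2 in mutants, and B4galnt2, which makes the Sda/Cad antigen of the gut, had 182 ± 20.9 and 188 ± 7.89. Neither difference passed (adjusted p = 0.660 and 0.728), and B4galnt1 overlaps Slc26a10 over 20.7% of its exon length. B4galnt3 had 4.86 to 9.25 FPKM over the 9 libraries and did not pass. B4galnt4 had 7.95, 8.28 and 9.19 FPKM in the controls, 11.9, 11.1 and 13.3 across set A, and 10.2, 10.0 and 13.7 across set B. All 6 mutant libraries were higher than all controls, including B9. The difference of 0.42 ± 0.11 missed the threshold with all libraries (limma adjusted p = 0.0864). It passed without B9 (0.45 ± 0.10, limma adjusted p = 0.0405). Over the 15 alternatives to the fit with all libraries, the fit without B9 included, limma adjusted p ran from 0.0402 to 0.270.

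Core formation and branching held 4 tested genes, none of which passed. Gcnt3, the mucin-type branching enzyme, had 17.6, 12.7 and 20.4 FPKM in the controls, 22.4, 18.6 and 54.2 across set A, and 27.1, 12.3 and 50.1 across set B. The groups overlapped, with both day-10 mutant libraries far above the rest, and the difference was 0.67 ± 0.46 (adjusted p = 0.449). C1galt1, which makes the galactose-bearing core, had 20.04 ± 0.993 FPKM in controls against 23.4 ± 3.60 in mutants (adjusted p = 0.412), and Gcnt4 had 18.8 ± 2.84 and 19.4 ± 2.99. Gcnt1 and Gcnt7 stayed below 1 FPKM.

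The Galnt family, which starts O-glycosylation, had 10 tested genes of 17 and none passed. Galnt1 was highest on average at 45.5 ± 3.88 FPKM in controls against 48.1 ± 6.42 in mutants. Galnt6 had 40.9 ± 6.96 and 49.6 ± 6.30, and Galnt10 35.3 ± 2.59 and 34.3 ± 2.05. Galnt2, Galnt3, Galnt4, Galnt7, Galnt11 and Galnt12 had control means between 6.92 and 32.7 FPKM. Galnt5 lay lower in every mutant library than in any control (3.56 to 4.98 FPKM in control, 2.03 to 3.53 in the mutants), with a difference of −0.38 ± 0.14 that did not pass (adjusted p = 0.185). Galnt9, Galnt13, Galnt14, Galnt15, Galnt16, Galnt17 and Galnt18 stayed below 1 FPKM.

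**Figure D3:**
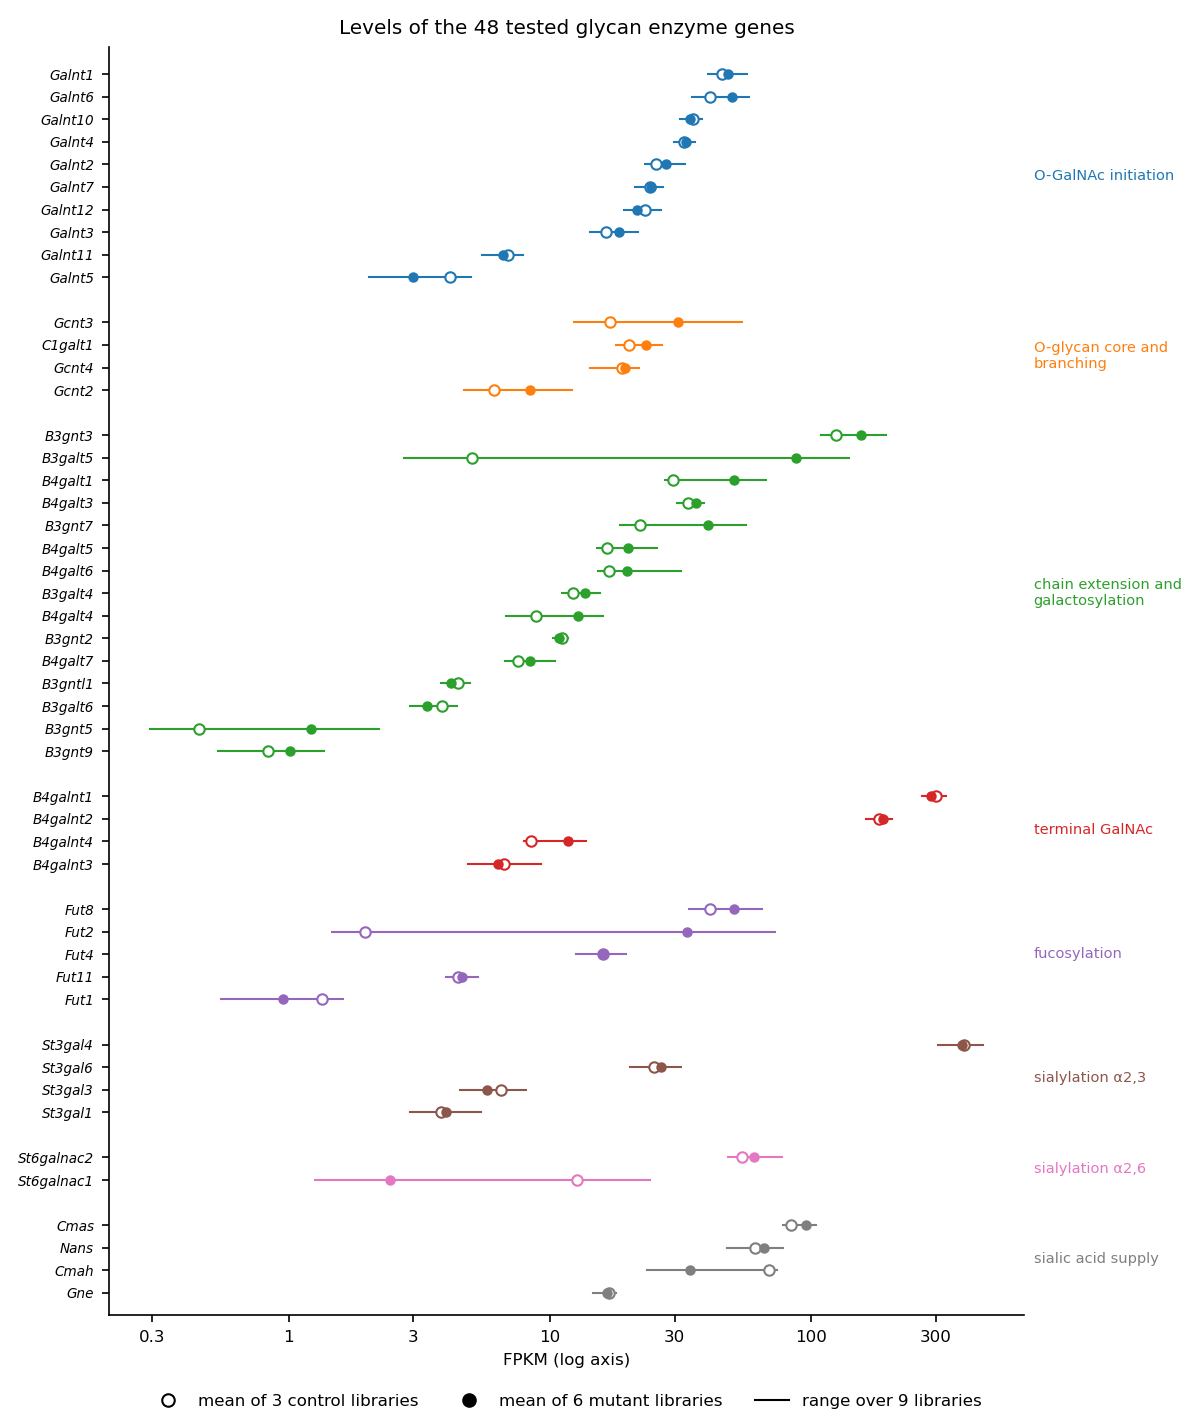
Mean FPKM on a log axis for the 48 tested members, grouped by role; open points are the mean of 3 control libraries, filled points the mean of 6 mutant libraries, and lines the range over all 9. St3gal4, B4galnt1 and B4galnt2 are highest in both, and the points of Fut2 and B3galt5 lie farthest apart.

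Among sialyltransferases, St3gal4, which caps chains with sialic acid linked to galactose, was the most abundant of all 48 tested members. It had 434, 315 and 407 FPKM in the controls, 306, 454 and 435 across set A, and 340, 319 and 411 across set B. The groups overlapped widely, and means of 385 ± 62.5 FPKM in controls against 378 ± 63.7 in mutants gave a difference that did not pass (adjusted p = 0.928). St3gal6 had 25.0 ± 5.98 and 26.7 ± 1.92 FPKM, and St3gal3 6.48 ± 1.4 and 5.74 ± 0.954. St3gal1 had 2.90 to 5.44 FPKM over the 9 libraries. St3gal2 and St3gal5 stayed below 1 FPKM.

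St6galnac1, which places sialic acid on the first GalNAc of mucin chains and is made mainly by goblet cells, had 9.68, 24.2 and 4.20 FPKM in the controls, 2.52, 4.63 and 1.26 across set A, and 1.92, 3.03 and 1.30 across set B. The groups overlapped only between the control of day 10 and set A on day 9, and the day-10 library was the lowest of each group. The difference of −1.77 ± 0.49 did not pass (adjusted p = 0.108), nor did −1.88 ± 0.53 without B9 (adjusted p = 0.0752). On each day both sets were below the control of that day. The call changed in 2 of 14 alternatives, in which St6galnac1 passed as lower. These were library weights (limma adjusted p = 0.0482) and the day as a block (limma adjusted p = 0.0371). The range over the 14 was 0.0371 to 0.304. With library weights many more of all genes passed too, as counted further below, and the share for the day block is not given. A near copy of this gene, Gm11735, has no row, so its reads may be counted here. St6galnac2 had 54.2 ± 6.91 FPKM in controls against 60.2 ± 11 in mutants (adjusted p = 0.660).

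Summed goblet cell markers, a list of 8, gave 7902 to 10162 FPKM for the controls, 7838 for B9 and 7642 to 10314 for the other mutants. Much of these sums was Tff3 and Spink4, with control means of 2295 and 3269 FPKM. The part of the goblet markers in the St6galnac1 result was not tested. Of the 8, none passed with all 9 libraries, and Clca1, a secreted goblet protein chosen after its values were seen, fell by 2.16 without that library (adjusted p = 0.0283). Of the other sialyltransferases, St6gal1, St6gal2, St6galnac3, St6galnac4 and St6galnac5 and all 7 St8sia rows stayed below 1 FPKM in every library, and St6galnac6 reached 1.78 in 1 control library only.

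**Figure D4:**
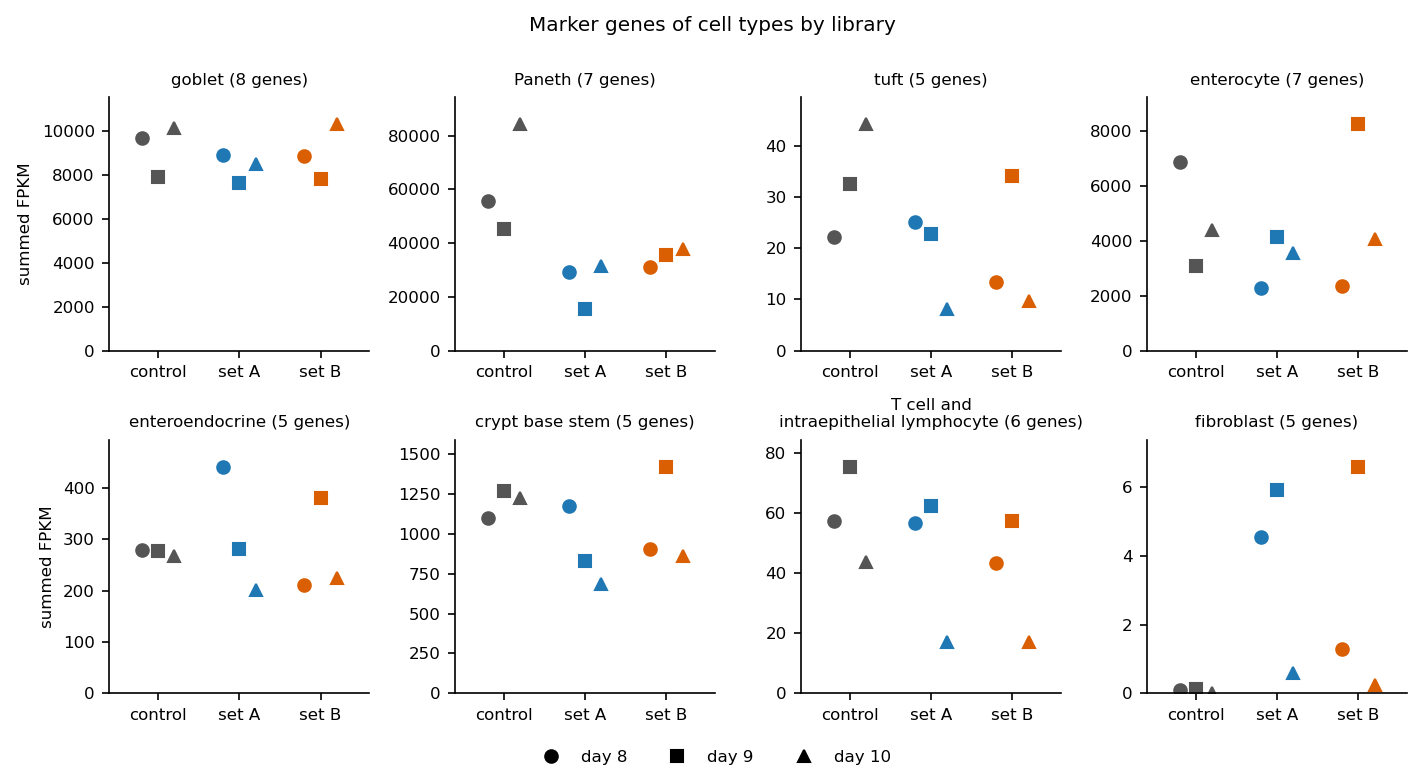
Summed FPKM of marker lists for 8 cell types in the 9 libraries, by group, with the day as the marker shape, each axis starting at 0. Goblet sums overlap between groups, Paneth sums are lower in all 6 mutant libraries, and T cell and tuft sums are lowest in the 2 day-10 mutant libraries.

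No member passed in set A with all 9 libraries (0 of 48; 0.215% of all genes passed), and 10 of the 48 had an unadjusted p under 0.05, as did 2015 of the 12097 genes. In set B only Cmah passed (0.628% of all genes). Without B9, 2 members passed in set A, B3galt5 and Cmah (1.03%), and 5 in set B, B3galt5, B4galt1, Cmah, Fut2 and Fut8 (3.94%). The set A differences of B3galt5 and Cmah were the same in both fits, and only their SE, from the shared spread, was smaller. The sets share their controls. Set B against set A gave 0 of 48 members and 0 of 12097 genes by limma; at an unadjusted p under 0.05 there were 0 members and 376 genes, and with library weights 0 members and 3 genes passed. The largest differences between sets by p were those of Cmah, B3gnt2 (0.10 ± 0.06), Fut11 (0.14 ± 0.09), B4galt6 (0.32 ± 0.22) and Galnt11 (0.17 ± 0.12). Without B9, B4galt6 differed by 0.05 ± 0.11, and the smallest p was that of Fut8 (0.44 ± 0.09, unadjusted p = 0.0015), which did not pass (limma adjusted p = 0.672). St3gal6 was the one member with every library of set B above every library of set A (3.18% of all genes were).

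Genes that supply these enzymes were read from 5 further lists: none of 5 tested genes of GDP-fucose supply, 7 of sialic acid supply and turnover, 10 of other sugar nucleotides, 13 partner enzymes and 4 mucins passed in any of the 4 comparisons with all 9 libraries. Gmds, the first enzyme of GDP-fucose synthesis from GDP-mannose, had 185, 172 and 195 FPKM in the controls, 304, 285 and 512 across set A, and 412, 160 and 547 across set B. In B9, Gmds lay below every control. Gmds differed by 0.89 ± 0.37 with all libraries (adjusted p = 0.223) and rose by 1.15 without that one (adjusted p = 0.0250).

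By the smallest p in each list, the sialidase Neu1 went from 8.24 ± 1.22 to 12.7 ± 2.19 FPKM, Galt of the galactose pathway from 21.8 ± 2.10 to 27.9 ± 1.84, and the lysosomal fucosidase Fuca1 from 68.2 ± 8.01 to 101 ± 19.8. The membrane mucin Muc13 went from 1071 ± 214 to 1615 ± 397. None of these 4 passed with all libraries (adjusted p = 0.0914, 0.0651, 0.138 and 0.236). Without B9, those 4 rose (adjusted p = 0.0465, 0.0410, 0.0374 and 0.0324), as did Casd1, Slc35a2 and Muc1 of the same lists. Muc1 had 0.343 to 0.571 FPKM in the controls and passed the filter only through mutant libraries, so its direction was in part fixed by the filter.

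A pattern over days was noticed after the values were seen. For 18 of the 48 tested members, the day-10 libraries of set A and set B were the highest pair of the 9, as were those of 14.3% of all tested genes, and for 1 member, St6galnac1, they were the lowest pair (9.02% of all genes). The 18 were B3galt5, B3gnt3, B3gnt5, B3gnt7, B3gnt9, B4galnt4, B4galt1, B4galt4, B4galt5, Cmas, Fut2, Galnt1, Galnt2, Galnt3, Galnt6, Gcnt2, Gcnt3 and Nans. Gcnt2, which branches chains into the I antigen, had 11.2 and 12.1 FPKM in these libraries and 4.68 to 8.14 in the other 7, and B4galt5, which starts lactosylceramide, had 25.6 and 24.8 against 15.2 to 18.3. Summed tuft cell markers were also lowest in this pair, at 8.18 and 9.71 FPKM against 13.5 to 44.2 elsewhere, as were T cell markers, at 17.1 and 17.0 against 43.3 to 75.3, and their part in the pattern was not tested. With 1 library per group and day, the day and the library cannot be told apart. The counts in this pattern are on the deposited scale and were not repeated after rescaling to equal totals. Totals of the day-10 libraries were 726553 FPKM in set A, 755802 in set B and 747478 in control, beside 624923 to 706691 in the others. The part of these totals in the pattern was not tested.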

How the data were processed

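Poly(A) RNA of 9 libraries was sequenced from both ends, per the labels. The authors deposited FPKM values, fragments relative to a library scale and transcript length, per gene symbol. No label or header names this unit, which was taken from the numbers themselves, as was the scaling to equal median ratios. Of tools, the submitters' processing notes list kallisto 0.46.1 and DESeq2 1.40.1, with build mm9, and no role for any. Here limma 3.58.1 (R 4.3.3) was fitted to log2(FPKM + 1), for genes reaching 1 FPKM in 3 or more libraries. The model held group means over all 9 libraries, with trend and robust options and Benjamini-Hochberg adjustment at 0.05. The added 1 understates the change of low genes. The fit was tested on simulated data. Near copies were sought with blastn 2.17.0 and promoters were read from RefSeq windows of GRCm38.p6.

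The members and lists were chosen with earlier results of these data known. Genes named are Cmah and Fut2, members that passed, the 3 most abundant of each role, the 5 smallest p of each comparison, members near the filter, and 1 gene of each further list. Xist, the Y-linked genes, Cdx2, the crypt base stem markers, Clca1, Casd1, Slc35a2 and Muc1 were chosen after their values were seen. So were the other genes named as passing or not overlapping without set B of day 9. Alternatives to the fit with all 9 libraries were a pseudocount of 0.1, other filters, rescaled totals, library weights and a day block. Fits to only the groups compared, and each library left out in turn, B9 included, were others. No alternatives to the fit without B9 were run.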

Additional observations from a re-analysis of the deposited data

Results flagged for a closer look

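Of the 48 tested members, 2 had a mutant library far from the other 5, by the gap to the nearest library as a share of the range. B4galt6 was at 31.8 FPKM in the set B library of day 9, against 20.2 in the next highest mutant library. St3gal1 was at 2.92 FPKM in the day-9 library of set A, against 3.89 in the next lowest. Chance gives about 1 in 20 such groups, and 6.46% of all tested genes met the same rule.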

How the results depend on the processing

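The count of members past the threshold in both sets against control was 1 with all 9 libraries, 2 after rescaling, 8 with library weights and 2 with the day as a replicate block, and ran from 0 to 7 when 1 library was left out (7 without the set B library of day 9). For set A it was 0, then 1 with weights and 1 with the compared groups alone, and 0 to 2 with 1 library left out. For set B it was 1, then 10 with weights and 0 with the compared groups alone, and 0 to 5 with 1 library left out. For set B against set A it was 0 throughout, also with 1 library left out (0 to 0). Over all genes, both sets gave 140, then 80 with no filter and 1438 with weights (17 to 994 with 1 library left out); set A gave 26, then 44 with weights and 16 with the replicate block (3 to 124); set B gave 76, then 2035 with weights and 33 with the compared groups alone (18 to 477); set B against set A gave 0, then 2 with a pseudocount of 0.1 and 3 with weights (0 to 1). The weights put the day-8 library of set B at 4.06 and the day-9 library at 0.322. The exact permutation p ran from 0.0357 to 0.0714 for Cmah and from 0.0357 to 0.143 for Fut2 with 1 library left out; with 2 controls no p under 0.0714 is possible.

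Same-numbered libraries share a day but did not all deviate together: correlations ran from −0.236 to 0.615 over 9 such pairs, with the highest between sets A and B on day 10 (0.615) and day 9 (0.398). Not every pair exceeded 0.1, so the numbers were not taken as a pairing. With the replicate block, Cmah passed in both sets (limma adjusted p = 0.0498) but not in set B (limma adjusted p = 0.0560). St6galnac1 fell in both sets (limma adjusted p = 0.0371) and in set B (limma adjusted p = 0.0488). The share of all genes passing in these block fits is not given here.

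Signs were compared only for the named genes in their comparisons, and no difference whose sign turned was past the threshold. The largest of these was B4galt6 in set B against set A, 0.32 ± 0.22 with all 9 libraries. B4galt6 in set B against set A became −0.0089 with weights; Fut4 became 0.030 after rescaling and 0.037 with weights; St3gal4 became 0.0090 after rescaling. With 1 library left out, the ranges for both sets against control that cross 0 were −0.12 to 0.0010 for B4galnt1, −0.027 to 0.14 for B4galnt2, −0.073 to 0.14 for Gcnt4, −0.13 to 0.079 for Fut4, −0.089 to 0.013 for Galnt10, −0.17 to 0.061 for St3gal4, −0.025 to 0.29 for St3gal6 and −0.25 to 0.00028 for St3gal3. The cause was not tested. Members near 1 FPKM rest on few fragments.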
